A study of Hordeum vulgare with 12 samples.

Results

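The genes described here were more abundant after zeocin treatment in the root apices of the barley mutant *hvatr.g*. In the wild type (WT) their zeocin means stayed under 1.5 times their mock means. They were selected on their measured values. Counts were scaled to a library total of 1000000 (CPM), and means were taken over the 3 libraries of a group. A gene was taken where its *hvatr.g* mean was at least 2 times as high after zeocin as after mock treatment, where the zeocin libraries did not overlap the mock libraries in *hvatr.g*, where the *hvatr.g* zeocin mean reached 1 CPM, and where the ratio in WT stayed under 1.5. This gave 67 of the 83990 rows of the count table, of which 20985 reached 1 CPM in zeocin-treated *hvatr.g*. Since both zeocin ratios chose the genes, these ratios are a description here and not a result of a test.

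Poly(A) RNA was sequenced from dissected root apices of 7-day-old barley plants (*Hordeum vulgare*), moved for 6 h into liquid medium. The groups were *hvatr.g* with 500 µg/ml zeocin, *hvatr.g* with 0 µg/ml zeocin (mock), WT with 500 µg/ml zeocin and WT with 0 µg/ml zeocin. WT was cv. Sebastian, the background of the mutant, and every group held 3 libraries of biological replicates, which the labels do not tie to single plants or pools. The line *hvatr.g* carries an allele of *ATR* found by TILLING, which is the search for point mutations in a mutagenised population. Only 1 mutant line was sequenced, so the *ATR* allele and any other difference between this line and WT cannot be told apart.

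Zeocin belongs to the bleomycin family of glycopeptides and cuts DNA strands. ATR is a protein kinase that is recruited to single-stranded DNA at stalled replication forks and at processed breaks, and it slows the cell cycle and protects forks through phosphorylation of its targets. In Arabidopsis much of the transcriptional response to DNA damage runs through the transcription factor SOG1, which ATM and ATR can phosphorylate. Root apices hold the meristem, whose dividing cells are sensitive to such damage.

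Library totals ran from 36100439 to 74699245 counts. *ATR* itself (HORVU.MOREX.r3.7HG0748510) had 15.1 to 18.5 CPM in zeocin-treated *hvatr.g*, 13.2 to 20.7 CPM in mock-treated *hvatr.g*, and in WT 9.35 to 13.7 CPM after zeocin and 9.13 to 15.2 CPM after mock treatment. Its level does not check the genotype labels, because a point mutation need not lower the RNA level. The summed level of *PARP2*, *REV3* and *BRCA1* was 334 to 444 CPM in zeocin-treated and 58.9 to 75.5 CPM in mock-treated *hvatr.g*. In WT it was 214 to 414 CPM after zeocin and 39.0 to 70.0 CPM after mock treatment. The study had reported *PARP* genes, *REV3* and *BRCA1* as raised by zeocin in these libraries. Their rise was thus fixed by the choice and is no independent check of the treatment. Other marker sums also moved with the groups. The sum of 4 genes of dividing cells (*CYCB1;2.C*, *CDKB2;2*, *FAS1* and *VIM1*) was 41.9 to 66.8 CPM in zeocin-treated and 203 to 290 CPM in mock-treated *hvatr.g*, and 80.5 to 89.5 CPM in zeocin-treated and 155 to 257 CPM in mock-treated WT. These genes of dividing cells had been reported by the study as lowered by zeocin in WT in these libraries. Their fall after zeocin was thus fixed by the choice in WT and favoured by it in *hvatr.g*. It is no independent reading of cell composition. The markers of differentiated root and of shoot and leaf were found by description in the study's tables of genes that responded in these libraries. Genes of these families outside those tables were not summed, and this choice favoured differences of the root markers between groups. For 16 nicotianamine synthase and high affinity nitrate transporter genes, taken as markers of differentiated root, the sum was 31.9 to 34.6 CPM in zeocin-treated and 26.1 to 31.6 CPM in mock-treated *hvatr.g*, against 171 to 969 CPM in zeocin-treated and 140 to 199 CPM in mock-treated WT. These 16 genes did not move together: the 9 synthase genes summed to 877, 284 and 39.4 CPM in the zeocin-treated and 6.24, 79.9 and 57.6 CPM in the mock-treated WT libraries and to at most 1.47 CPM in any *hvatr.g* library, whereas the 7 transporter genes summed to 91.9 to 131 CPM in zeocin-treated and 101 to 141 CPM in mock-treated WT. All 4 genes of dividing cells reached 1 CPM in each group, while of the 16 differentiated root genes 2 did so in *hvatr.g* after zeocin and 3 after mock treatment, against 14 and 11 in WT. The 5 shoot and leaf genes listed in those tables of responding genes summed to at most 2.28 CPM in any library. What these shifts contribute to the values of the 67 genes was not tested, and in bulk RNA fewer cells of a type and less RNA per cell cannot be told apart.

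As a group, the 67 genes were at 727, 660 and 780 summed CPM in the zeocin-treated *hvatr.g* libraries, against 322, 351 and 269 CPM in the mock-treated *hvatr.g* libraries. In WT the sums were 514, 478 and 519 CPM after zeocin and 418, 371 and 383 CPM after mock treatment. The mean was thus 722 ± 60.2 CPM against 314 ± 41.7 CPM in *hvatr.g*, a ratio of 2.30, and 504 ± 22.0 CPM against 391 ± 24.7 CPM in WT, a ratio of 1.29 (SD, n = 3 each). The sums did not overlap in *hvatr.g*, which the rule forces, and did not overlap in WT, where the summed level was also higher after zeocin. Genes with high counts weigh most in such a sum, which does not show how single genes moved. HORVU.MOREX.r3.3HG0313990 alone had a WT mean of 91.1 CPM after zeocin and 63.5 CPM after mock treatment. The *hvatr.g* ratios of single genes lay between 2.00 and 8.71 around a median of 2.27, and 44 genes were under 2.5. Ratios of at least 3 were found for 10 genes and of at least 4 for 4 genes. WT ratios lay between 0.467 and 1.4975, and their median was 1.36.

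The WT values did not show that the genes were raised only in *hvatr.g*, nor, gene by gene, that most of them rose in WT. WT ratios of at least 1 were present in 58 of the 67 genes (86.6%), all under 1.5 by the rule. Of the rows at 1 CPM in zeocin-treated *hvatr.g* with a WT ratio, 49.8% lay at 1 to 1.5. Ratios of 1.3 to 1.5 were present in 42 of the 67 genes. The 9 genes under 1 were 7 at 0.5 to 1 and 2 under 0.5, beside 44.0% and 1.35% of those rows. In 14 genes all WT zeocin libraries were above all WT mock libraries, which held for 8.0% of the 26039 genes tested. In 1 gene all were below, beside 6.9%, and in 52 genes the WT libraries overlapped, beside 85.1%. WT libraries of the same replicate number deviated together, and compared by number, zeocin exceeded mock in all 3 WT pairs in 28 of the 67 genes, beside 22.7% of the genes tested, and lay below it in all 3 in 3 genes, beside 19.1%. The WT ratio was part of the rule, so these counts are descriptions. The limit of 1.5 also fell inside a continuous range of WT ratios. Of the 409 rows that met the other parts of the rule, 338 had a WT ratio of at least 1.5 and 4 had no count in mock-treated WT. The 405 rows with a WT ratio had a median of 2.64, and 270 of them were at least doubled in WT as well. Between 1.4 and 1.5 there were 25 rows, against 14 between 1.5 and 1.6. With the genotypes exchanged, the same rule took 57 of 343 rows, so a set of about this size was also found on the WT side.

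**Figure D1:**
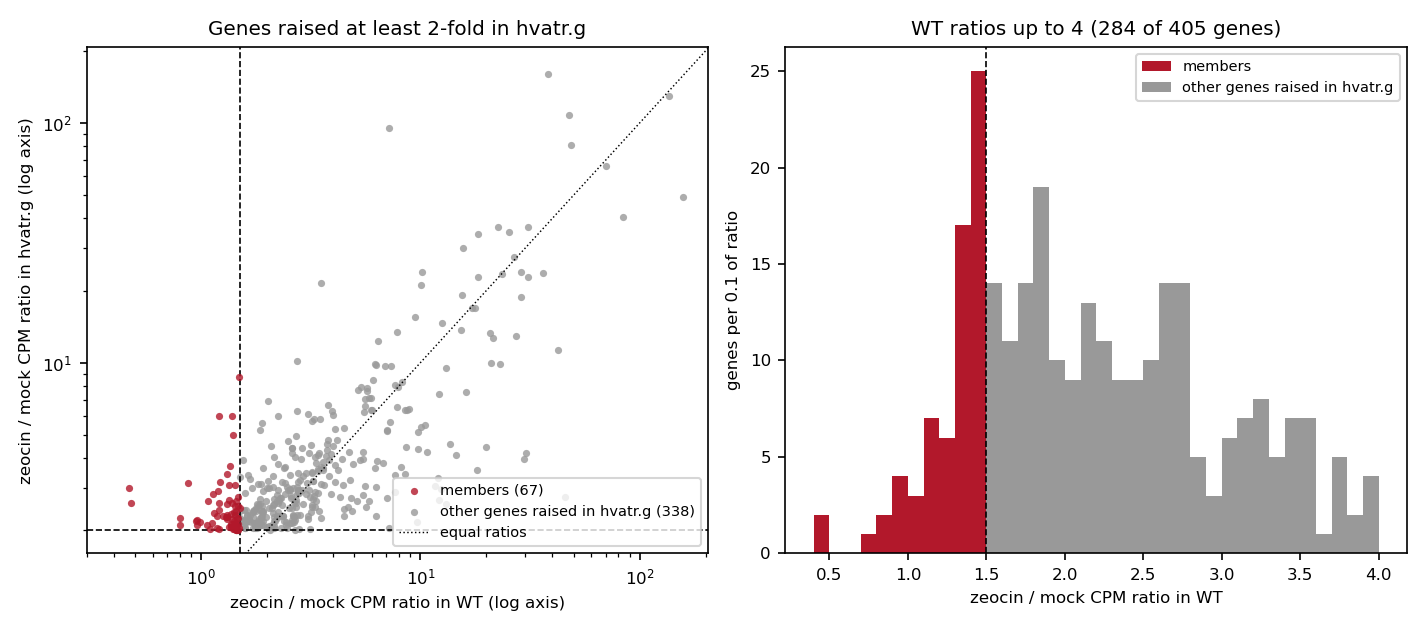
Ratio of mean CPM after zeocin to mean CPM after mock treatment for the 405 genes that were at least doubled in *hvatr.g* and had counts in mock-treated WT (left, both axes logarithmic, *hvatr.g* vertical and WT horizontal, dashed lines at the limits of 2 and 1.5), and the number of these genes per 0.1 of WT ratio for the 284 genes with a WT ratio under 4 (right). The 67 selected genes in red run into the 338 others in grey, with no gap at the WT limit.

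Genes close to each limit were as follows. The lowest *hvatr.g* ratio inside the rule was 2.00, in HORVU.MOREX.r3.2HG0096980, and the next row outside had 1.9998. On the expression limit, the LRR receptor-like kinase described below had 1.00 CPM, and a glutathione S-transferase row, HORVU.MOREX.r3.3HG0325810, missed it with 0.965 CPM. On the WT limit, the magnesium-protoporphyrin IX methyltransferase HORVU.MOREX.r3.7HG0716100 was inside at 1.4975, and another glutathione S-transferase, HORVU.MOREX.r3.3HG0311650, was outside at 1.5021. The smallest gap that still counted as no overlap belonged to HORVU.MOREX.r3.6HG0560100, whose lowest *hvatr.g* zeocin library was 1.03 times its highest *hvatr.g* mock library.

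The edgeR fit over all 12 libraries put 27 of the 67 genes (40.3%) past an adjusted p of 0.05 and a log2 fold change of 1 for zeocin against mock in *hvatr.g*, beside 1.29% of all genes tested. That contrast chose the genes, so nothing is read from this share. In WT no gene of the 67 was called higher, beside 1.12% of all genes. The limit on the WT ratio lies below the fold threshold of a call, so the rule itself fixed this 0 and nothing is read from it. Lower calls were open to the rule. None was made among the 67 by edgeR, DESeq2 or limma-voom, beside 0.902% of all genes by edgeR, a share so small that nothing is read from this 0. By edgeR's p in WT without the fold threshold, 9 of the 67 genes were under 0.05 unadjusted, beside 12.5% of all genes, and 1, the Dof gene described below, was under 0.05 adjusted, beside 3.16%. The difference between both responses (interaction) was called larger in *hvatr.g* for 0 of the 67 and 0 of the 26039 genes (0.0%) by edgeR at an adjusted p of 0.05. At an unadjusted p under 0.05 edgeR gave 22 of the 67 genes (32.8%) and 315 of all genes (1.21%) with a larger response in *hvatr.g*. In either direction, 1120 of the genes tested were under 0.05. Both contrasts of the interaction had chosen the 67, so nothing is read from their share. DESeq2 called 17 genes with a larger response in *hvatr.g*, 6 of them among the 67, and 120 genes in either direction. With a larger response in *hvatr.g*, limma-voom called 1 gene and none of the 67. The fitted interaction was above 0 in all 67, from 0.42 to 2.62 on the log2 scale with a median of 0.84, which the rule itself forces. The median standard error, derived from the fold change and edgeR's F statistic, was 0.48. The median log2 fold change was 1.15 in *hvatr.g* and 0.41 in WT, beside 0.00 for all genes tested in both contrasts.

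**Figure D2:**
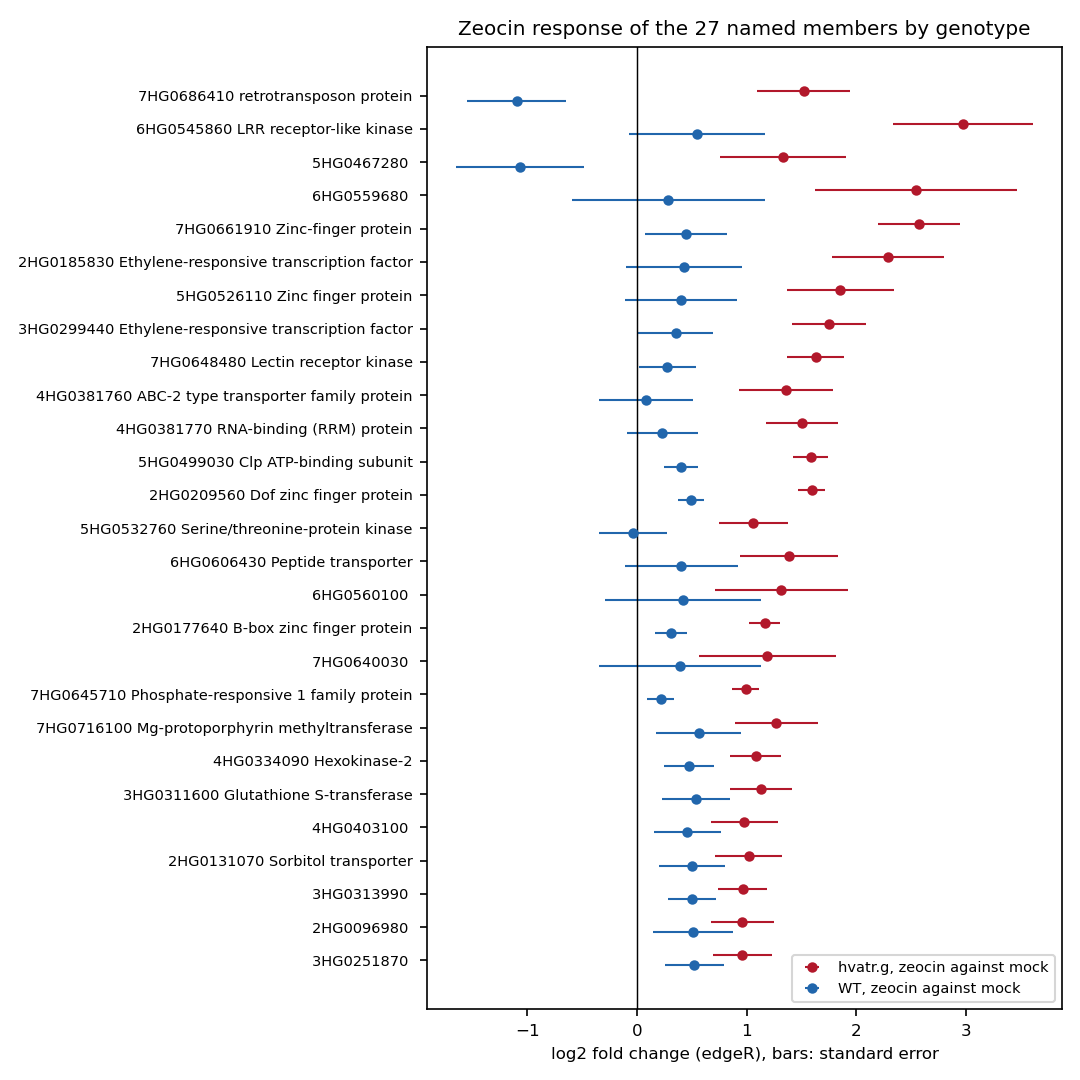
Fitted log2 fold change of zeocin against mock treatment (horizontal) for the 27 genes named by the rule given with the processing, in *hvatr.g* (red) and in WT (blue), n = 3 libraries per group. Bars are 1 standard error, derived as the absolute log2 fold change over the square root of edgeR's F statistic in the fit of all 12 libraries. The genes are ordered by the difference between both values. The WT points lie mostly to the right of 0, and 3 lie to its left.

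Of the 67 genes, 44 had a description in the annotation tables published with the study, and 23 had none. Those tables list genes that responded in these libraries, so the described share says nothing about the genome. By keyword, 7 descriptions named a kinase (1 of them a sugar kinase) and 4 a transporter. None named a histone, a cell cycle protein, a resistance (NLR) protein or a cytochrome P450. A further 5 matched transcription factor keywords, which here took in zinc finger names but missed the hyphenated HORVU.MOREX.r3.7HG0661910. Keyword counts over all described genes are not given, so nothing is read from those of the 67. The genes lay on all 7 chromosomes, with 14 on 2H, 11 each on 4H and 7H, 10 on 5H, 8 on 3H, 7 on 1H and 6 on 6H. Only 1 pair were neighbours in the gene numbering. In the account below, the genes outside the naming rule were added for their annotation after their values had been seen. Levels are not compared between genes, since CPM is not divided by transcript length.

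Among proteins that perceive signals at the cell surface, the LRR receptor-like kinase HORVU.MOREX.r3.6HG0545860 had the largest ratio. Receptor kinases of this family bind peptides or other ligands outside the cell and phosphorylate proteins inside it. It had 1.23, 0.708 and 1.07 CPM in zeocin-treated *hvatr.g*, against 0.187, 0.109 and 0.0485 CPM in mock-treated *hvatr.g*, a ratio of 8.71. In WT it had 0.661, 0.136 and 0.563 CPM after zeocin and 0.549, 0.194 and 0.173 CPM after mock treatment, a ratio of 1.48. The WT libraries overlapped widely, and the *hvatr.g* mock level rested on as few as 2 counts in a library, so the size of the ratio is imprecise.

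Lectin receptor kinases carry a carbohydrate-binding domain outside the cell. HORVU.MOREX.r3.7HG0648480 of this type had 6.24, 5.55 and 7.14 CPM in zeocin-treated *hvatr.g*, against 1.98, 1.68 and 2.30 CPM in mock-treated *hvatr.g*. Its WT libraries had 4.27, 2.39 and 3.65 CPM after zeocin and 3.42, 3.16 and 1.88 CPM after mock treatment. The 3 zeocin-treated *hvatr.g* libraries stood above the other 9, with ratios of 3.17 in *hvatr.g* and 1.22 in WT. A second lectin receptor kinase, HORVU.MOREX.r3.2HG0108920, had 1.17, 0.899 and 1.10 CPM against 0.254, 0.365 and 0.388 CPM in *hvatr.g*. WT had 0.138, 0.190 and 0.245 CPM after zeocin and 0.143, 0.194 and 0.322 CPM after mock treatment. Here too the zeocin-treated *hvatr.g* libraries were above all others, and the WT ratio was 0.87.

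Intracellular kinases and calcium proteins followed at lower ratios. The calcium-dependent protein kinase HORVU.MOREX.r3.4HG0356730, of a family that couples calcium signals to phosphorylation, had 0.982, 1.28 and 0.863 CPM in zeocin-treated against 0.321, 0.274 and 0.509 CPM in mock-treated *hvatr.g*. In WT it stayed between 0.269 and 0.571 CPM after zeocin and between 0.247 and 0.499 CPM after mock treatment. The serine/threonine-protein kinase HORVU.MOREX.r3.5HG0532760 showed another pattern. Its *hvatr.g* libraries had 3.99, 3.4 and 4.18 CPM after zeocin and 2.33, 1.77 and 1.26 CPM after mock treatment, while WT had 7.10, 3.51 and 3.75 CPM after zeocin and 6.38, 4.74 and 3.46 CPM after mock treatment. Its mock level in *hvatr.g* was 0.37 times that in WT, and after zeocin the *hvatr.g* libraries reached the lower part of the WT range. The calcium-binding protein HORVU.MOREX.r3.5HG0484690 had 20.6, 18.3 and 34.2 CPM against 6.89, 12.7 and 9.31 CPM in *hvatr.g*, and 13.0, 14.3 and 11.7 CPM against 9.89, 6.95 and 10.5 CPM in WT. Zeocin libraries were above mock libraries in both genotypes for this gene, by 2.53 and 1.43 times.

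A CLE family gene, HORVU.MOREX.r3.4HG0410450, is of the family that encodes small secreted peptides, ligands of LRR receptor kinases that regulate meristems in Arabidopsis. It was at 3.31, 2.40 and 2.01 CPM in zeocin-treated *hvatr.g* and at 1.2, 1.66 and 0.582 CPM in mock-treated *hvatr.g*. WT had 4.85, 4.48 and 5.63 CPM after zeocin and 5.28, 7.23 and 6.19 CPM after mock treatment. All 6 *hvatr.g* libraries were below all 6 WT libraries, and the mock level in *hvatr.g* was 0.18 times that in WT, the lowest such ratio of the 67 genes.

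Transcription factors made up the next group. Ethylene-responsive transcription factors (ERFs) bind DNA through an AP2/ERF domain, and many respond to ethylene or to stress. HORVU.MOREX.r3.3HG0299440 had 8.26, 6.75 and 9.59 CPM in zeocin-treated *hvatr.g*, against 1.97, 2.26 and 2.93 CPM in mock-treated *hvatr.g*, and 2.92, 2.07 and 3.45 CPM after zeocin and 2.05, 1.16 and 3.24 CPM after mock treatment in WT. The zeocin-treated *hvatr.g* libraries stood clear of the other 9, with ratios of 3.44 and 1.31. The second ERF, HORVU.MOREX.r3.2HG0185830, had 2.47, 0.899 and 2.12 CPM against 0.348, 0.292 and 0.461 CPM in *hvatr.g*, a ratio of 4.99. In WT its libraries had 0.936, 0.625 and 0.245 CPM after zeocin and 0.478, 0.249 and 0.569 CPM after mock treatment. Replicate 2 of zeocin-treated *hvatr.g* was below the highest WT zeocin library, so the zeocin groups of both genotypes overlapped.

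The zinc-finger protein HORVU.MOREX.r3.7HG0661910 had 2.33, 1.72 and 1.62 CPM in zeocin-treated against 0.161, 0.420 and 0.364 CPM in mock-treated *hvatr.g*, a ratio of 6.00. WT libraries held 0.716, 0.571 and 0.832 CPM after zeocin and 0.597, 0.360 and 0.569 CPM after mock treatment. Its lowest zeocin-treated *hvatr.g* library was above every other library outside that group. By contrast, HORVU.MOREX.r3.5HG0526110, described as a zinc finger protein, had 2.95, 6.40 and 10.01 CPM against 1.14, 2.72 and 1.36 CPM in *hvatr.g*. Its ratio of 3.71 came with a wide spread, and the lowest zeocin library was close to the highest mock library. The WT libraries of this gene ran from 1.10 to 1.77 CPM after zeocin and from 0.582 to 1.68 CPM after mock treatment.

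Dof proteins are plant-specific factors with a single zinc finger. The Dof gene HORVU.MOREX.r3.2HG0209560 had 21.4, 18.0 and 19.0 CPM in zeocin-treated *hvatr.g*, against 6.24, 6.99 and 5.62 CPM in mock-treated *hvatr.g*, a ratio of 3.1. In WT it had 29.2, 31.5 and 33.5 CPM after zeocin, against 24.5, 21.6 and 20.3 CPM after mock treatment, a ratio of 1.42 without overlap. The zeocin level in *hvatr.g* therefore stayed below the zeocin level in WT and only came near the WT mock level, since the *hvatr.g* mock level was 0.28 times that of WT. The B-box zinc finger gene HORVU.MOREX.r3.2HG0177640, of a family with roles in light signalling in Arabidopsis, had 14.9, 14.8 and 16.9 CPM against 6.08, 7.61 and 6.54 CPM in *hvatr.g*, and 5.70, 5.68 and 5.53 CPM against 4.99, 4.85 and 3.69 CPM in WT. Its WT zeocin libraries were also all above its WT mock libraries, by a smaller ratio of 1.25 against 2.30 in *hvatr.g*.

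The final enzyme of ethylene synthesis, 1-aminocyclopropane-1-carboxylate oxidase, was represented by HORVU.MOREX.r3.5HG0485780. It had 27.6, 27.9 and 29.8 CPM in zeocin-treated and 13.7, 16.1 and 10.6 CPM in mock-treated *hvatr.g*. WT had 33.8, 13.6 and 39.0 CPM after zeocin and 22.9, 15.2 and 22.0 CPM after mock treatment. Replicates 1 and 3 of zeocin-treated WT were higher than every *hvatr.g* library, and the WT ratio of 1.44 was under the limit with replicate 2 far below the others. A gene of this kind meets the rule although its WT level was high in most zeocin libraries.

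**Figure D3:**
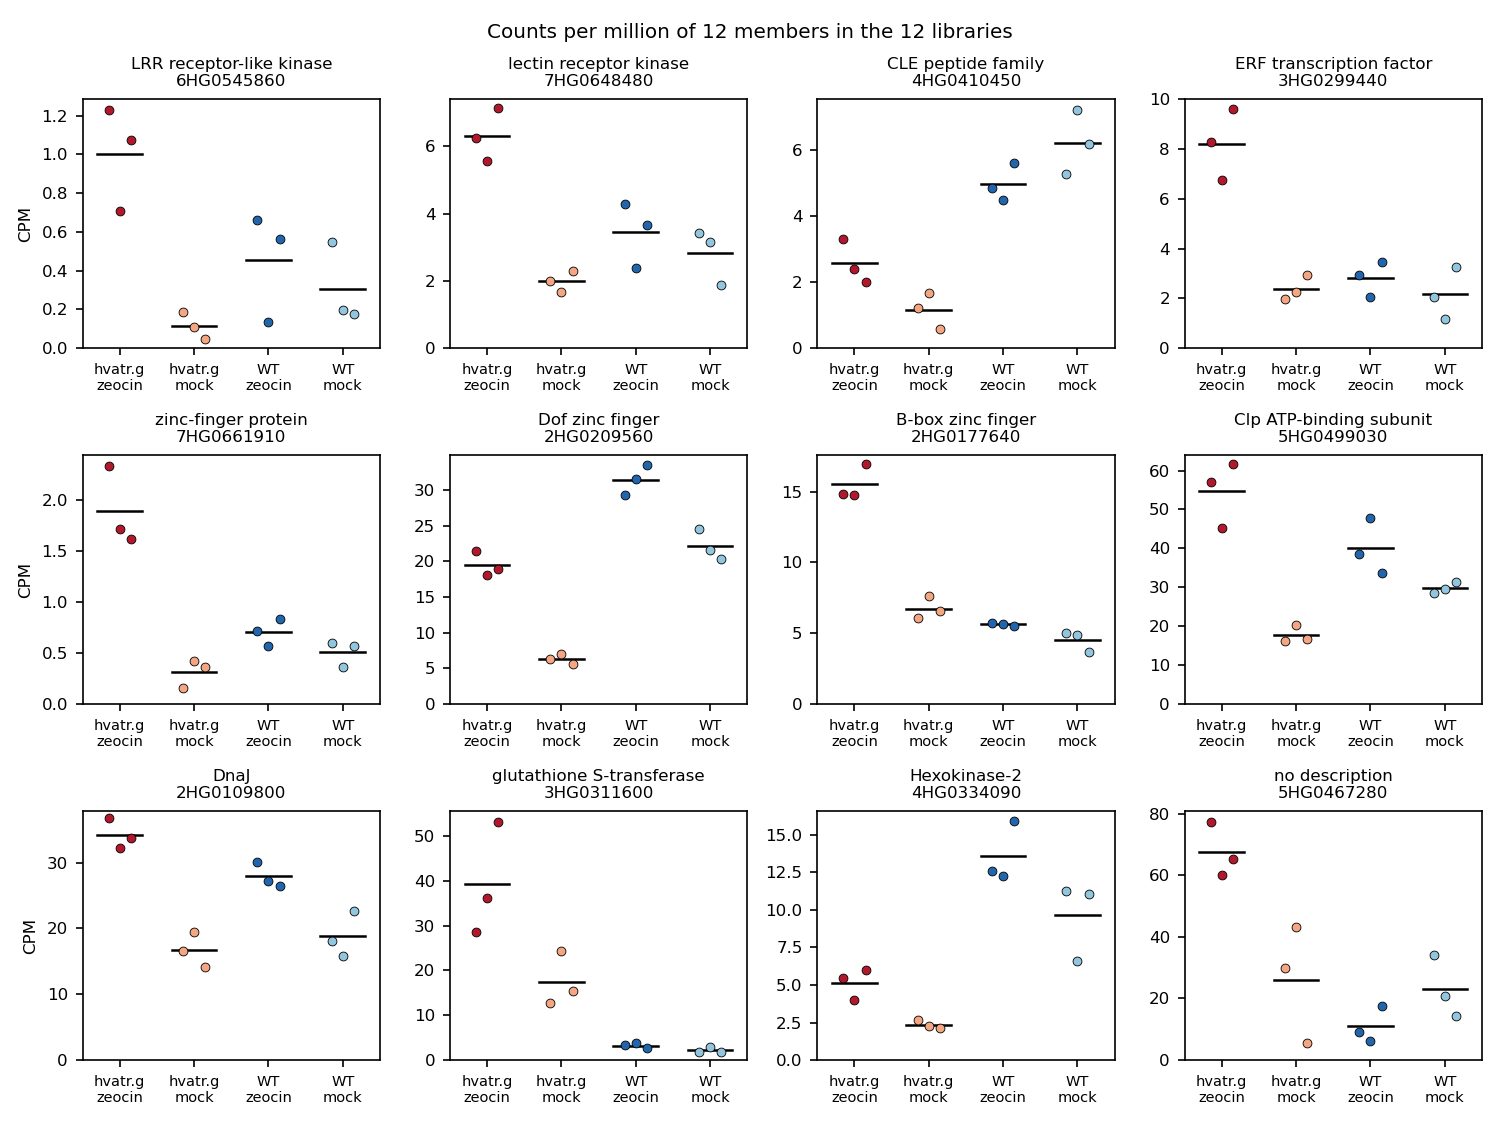
CPM (vertical, linear, from 0) of 12 of the 67 genes in each of the 12 libraries, by genotype and treatment, with a horizontal bar at the mean of 3 libraries. The zeocin-treated *hvatr.g* libraries are above the mock-treated *hvatr.g* libraries in every panel because the rule requires it, whereas their place relative to WT differs, from 28.6 to 53.0 CPM against at most 3.7 CPM for the glutathione S-transferase to below WT for the CLE, Dof and Hexokinase-2 genes.

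Genes for protein folding and turnover included 1 at high counts. The Clp protease ATP-binding subunit HORVU.MOREX.r3.5HG0499030, of the AAA+ chaperones that unfold proteins for degradation, had 57.0, 45.2 and 61.7 CPM in zeocin-treated *hvatr.g*, against 16.3, 20.4 and 16.6 CPM in mock-treated *hvatr.g*. WT had 38.6, 47.9 and 33.6 CPM after zeocin and 28.5, 29.6 and 31.2 CPM after mock treatment. The *hvatr.g* mock libraries were below all WT libraries and the zeocin libraries overlapped between genotypes, so the larger ratio of 3.07 against 1.35 went with a lower mock level. DnaJ proteins are co-chaperones of Hsp70. The DnaJ gene HORVU.MOREX.r3.2HG0109800 had 36.7, 32.2 and 33.7 CPM against 16.6, 19.5 and 14.1 CPM in *hvatr.g*, and 30.1, 27.2 and 26.5 CPM against 18.2, 15.7 and 22.6 CPM in WT. It was higher after zeocin without overlap in both genotypes, by 2.05 and 1.48 times. A cyclophilin-like peptidyl-prolyl isomerase had ratios of 2.58 in *hvatr.g* and 1.31 in WT, a serpin-like protein 2.26 and 1.31, an aspartic proteinase 2.18 and 0.95, and a ubiquitin carboxyl-terminal hydrolase 2.51 and 1.47.

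Of the genes for detoxification and phenylpropanoid enzymes, 1 differed widely between genotypes. Glutathione S-transferases join glutathione to reactive compounds. HORVU.MOREX.r3.3HG0311600 of this family had 28.6, 36.2 and 53.0 CPM in zeocin-treated *hvatr.g* and 12.7, 24.3 and 15.4 CPM in mock-treated *hvatr.g*. WT had only 3.25, 3.7 and 2.62 CPM after zeocin and 1.72, 2.94 and 1.86 CPM after mock treatment. The gene was 8.05 times as high in *hvatr.g* as in WT under mock treatment and 12.3 times as high under zeocin, the highest such ratios of the 67 genes. Its own zeocin ratios were 2.25 and 1.47, so the separation between genotypes was present without zeocin. How reads shared with similar family members were counted is not stated, which leaves its level uncertain. Phenylalanine ammonia-lyase opens the phenylpropanoid pathway. The lyase gene HORVU.MOREX.r3.2HG0132700 had 34.5, 26.0 and 33.1 CPM against 11.0, 16.7 and 14.2 CPM in *hvatr.g*, and 15.3, 14.0 and 13.2 CPM against 12.8, 9.5 and 8.63 CPM in WT, with no overlap in either genotype. An aldo-keto reductase had ratios of 2.13 and 1.11.

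Transporters were 4 of the 67 genes. The peptide transporter HORVU.MOREX.r3.6HG0606430 had 4.87, 2.75 and 3.14 CPM in zeocin-treated and 1.31, 1.06 and 1.65 CPM in mock-treated *hvatr.g*, and 0.991, 0.272 and 0.490 CPM after zeocin and 0.693, 0.443 and 0.173 CPM after mock treatment in WT. All *hvatr.g* libraries were above all WT libraries. The sorbitol transporter HORVU.MOREX.r3.2HG0131070 went the other way, with 3.87, 3.65 and 3.61 CPM against 2.13, 1.42 and 1.77 CPM in *hvatr.g*, and 6.11, 4.81 and 8.28 CPM against 4.35, 2.71 and 6.23 CPM in WT. Its zeocin-treated *hvatr.g* libraries remained under the WT zeocin libraries. An amino acid transporter had ratios of 2.27 in *hvatr.g* and 1.3 in WT.

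The fourth transporter, the ABC-2 type gene HORVU.MOREX.r3.4HG0381760, was the neighbour of the RNA-binding protein gene HORVU.MOREX.r3.4HG0381770. The transporter had 5.71, 3.27 and 3.58 CPM in zeocin-treated and 1.70, 1.41 and 1.65 CPM in mock-treated *hvatr.g*, and 1.4, 3.81 and 1.18 CPM after zeocin and 1.43, 3.02 and 1.51 CPM after mock treatment in WT. Its neighbour had 4.50, 2.64 and 2.95 CPM against 1.10, 1.11 and 1.26 CPM in *hvatr.g*, and 1.73, 3.18 and 1.47 CPM against 1.53, 2.41 and 1.43 CPM in WT. Both were high in replicate 2 of WT under either treatment and in replicate 1 of zeocin-treated *hvatr.g*. Whether the counting used strand is not stated, so reads of these 2 genes may not be separated if the genes overlap, and they are not counted as 2 independent cases.

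Metabolic and wall genes closed the described set. Hexokinase-2, HORVU.MOREX.r3.4HG0334090, of the enzymes that phosphorylate glucose and in Arabidopsis also sense it, had 5.44, 4.03 and 5.99 CPM in zeocin-treated and 2.66, 2.30 and 2.13 CPM in mock-treated *hvatr.g*. In WT it had 12.6, 12.3 and 15.9 CPM after zeocin and 11.3, 6.62 and 11.1 CPM after mock treatment. Every *hvatr.g* library was below every WT library, and zeocin libraries were above mock libraries in both genotypes, by 2.18 and 1.41 times. The phosphate-responsive 1 family gene HORVU.MOREX.r3.7HG0645710, of a family of secreted proteins that includes EXORDIUM of Arabidopsis, had 59.5, 54.9 and 64.4 CPM against 30.9, 26.8 and 29.9 CPM in *hvatr.g*, and 52.7, 48.3 and 38.2 CPM against 38.7, 41.2 and 38.2 CPM in WT. Its *hvatr.g* replicates were close together, and WT replicate 3 had nearly the same level under both treatments. An endoglucanase, a COBRA protein and an exostosin-like glycosyltransferase, which act on the cell wall, had *hvatr.g* ratios of 2.41, 2.31 and 2.15 and WT ratios of 1.44, 1.42 and 1.42. The cyclo-ligase that the DNA keyword matched is an enzyme of purine synthesis, with ratios of 2.25 and 1.46. The methyltransferase of magnesium-protoporphyrin, on the chlorophyll pathway, had 2.76, 1.61 and 1.80 CPM against 0.991, 0.529 and 0.970 CPM in *hvatr.g*, and 1.16, 1.96 and 0.759 CPM against 0.788, 1.08 and 0.717 CPM in WT.

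A gene described as an unclassified retrotransposon protein, HORVU.MOREX.r3.7HG0686410, was the only one of the 67 whose WT zeocin libraries were all below its WT mock libraries. It had 1.02, 1.2 and 1.39 CPM in zeocin-treated and 0.415, 0.547 and 0.242 CPM in mock-treated *hvatr.g*, and 0.441, 0.353 and 0.318 CPM after zeocin and 0.502, 1.39 and 0.495 CPM after mock treatment in WT. The WT ratio of 0.467 rested in part on mock replicate 2, and reads of a repeated element may come from several copies. The undescribed HORVU.MOREX.r3.5HG0467280 was the other gene with a WT ratio under 0.5. It had 77.4, 60.1 and 65.3 CPM against 30.0, 43.1 and 5.38 CPM in *hvatr.g*, and 8.95, 6.28 and 17.6 CPM against 34.0, 20.7 and 14.3 CPM in WT. Its mock libraries spread widely in *hvatr.g*, with replicate 3 far below the others, and its WT groups overlapped.

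Among other genes without a description, HORVU.MOREX.r3.3HG0313990 had the highest counts, with 78.4, 93.3 and 78.6 CPM in zeocin-treated and 55.3, 44.2 and 25.2 CPM in mock-treated *hvatr.g*. WT had 96.3, 97.3 and 79.6 CPM after zeocin and 72.5, 64.7 and 53.3 CPM after mock treatment, again without overlap, and its WT zeocin mean was above its *hvatr.g* zeocin mean. HORVU.MOREX.r3.4HG0403100 had 41.0, 44.6 and 52.3 CPM against 21.0, 20.7 and 26.4 CPM in *hvatr.g*, and 32.5, 31.3 and 48.8 CPM against 20.5, 17.5 and 42.1 CPM in WT. In WT its replicate 3 was high under both treatments, so the groups overlapped although each zeocin library exceeded the mock library of the same number. HORVU.MOREX.r3.6HG0559680 had 6.01, 5.26 and 3.82 CPM against 0.495, 1.62 and 0.388 CPM in *hvatr.g*, a ratio of 6.02. In WT a single library was high in each group, with 1.65, 0.489 and 5.39 CPM after zeocin and 0.549, 5.01 and 0.717 CPM after mock treatment, so its WT ratio of 1.2 is a mean over unlike libraries. The remaining undescribed genes had *hvatr.g* ratios of at most 2.75.

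The levels of the genes relative to WT, which the rule did not set, fell into several patterns. Under mock treatment, the *hvatr.g* mean was under 0.5 times the WT mean in 11 genes (16.4%), within 0.5 to 2 times in 49 (73.1%) and above 2 times in 7 (10.4%). Over all rows that reached 1 CPM in zeocin-treated *hvatr.g*, these shares were 3.73%, 91.3% and 4.98%. All mock-treated *hvatr.g* libraries were below all mock-treated WT libraries in 14 genes, beside 12.8% of all genes tested, and above them in 9, beside 21.7%. Under zeocin, the *hvatr.g* mean was more than 2 times the WT mean in 27 genes (40.3%) and under 0.5 times in 3, against 5.03% and 4.0% of those rows. All zeocin-treated *hvatr.g* libraries were above all zeocin-treated WT libraries in 34 genes, beside 23.6% of all genes, and below them in 4, beside 14.9%. These contrasts use the libraries by which the genes were selected, and a low *hvatr.g* mock mean or a high *hvatr.g* zeocin mean favoured selection, so the shares are given as a description.

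In the edgeR fit, *hvatr.g* against WT under mock treatment called 5 of the 67 genes lower, beside 4.58% of all genes tested, and 2 higher, beside 3.87%. The lower genes were the Dof, Hexokinase-2, serine/threonine-protein kinase, sorbitol transporter and CLE genes, with log2 fold changes of -1.88, -2.10, -1.49, -1.4 and -2.49. The higher ones were the glutathione S-transferase at 2.94 and HORVU.MOREX.r3.2HG0096980 at 2.37. Under zeocin, 16 genes were called higher in *hvatr.g*, beside 3.46%, and 2 lower, beside 5.56%. Hexokinase-2 at -1.49 and the CLE gene at -1.04 were the 2 lower genes, so both were below WT under either treatment. Without zeocin-treated *hvatr.g* replicate 3, the higher calls under zeocin were 8 of the 67 genes and 552 of all genes, against 900 with all libraries. Without replicate 1 of that group they were 10 of the 67, and the 2 lower calls became 1 without zeocin-treated *hvatr.g* replicate 2 or 3 or zeocin-treated WT replicate 1 or 3. The median log2 fold change of the 67 genes was -0.33 under mock and 0.59 under zeocin treatment, beside 0.02 and 0.00 for all genes.

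**Figure D4:**
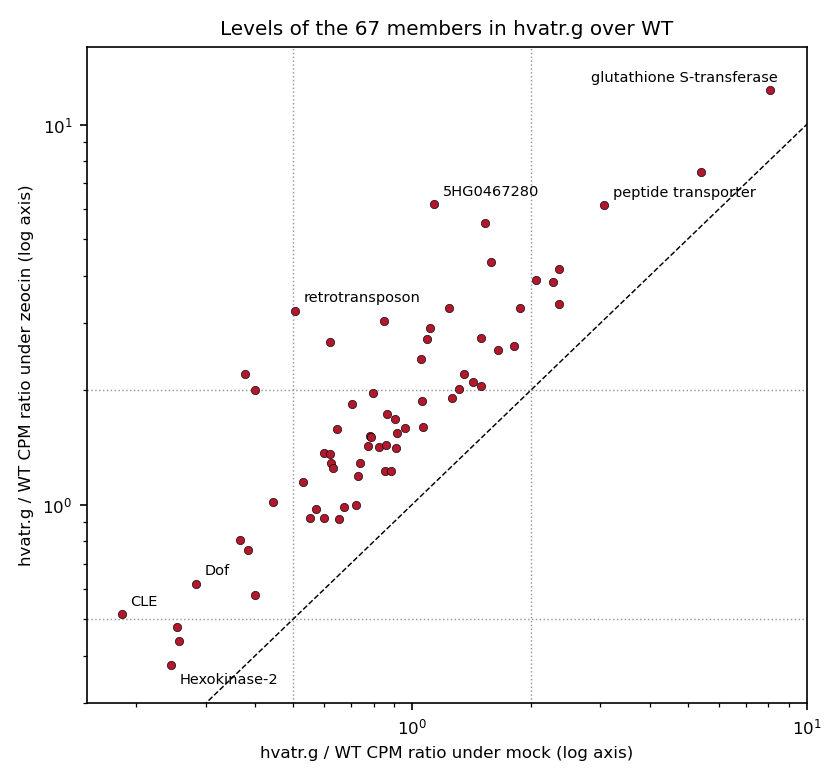
Ratio of mean CPM in *hvatr.g* to mean CPM in WT for the 67 genes under mock treatment (horizontal) and under zeocin (vertical), both axes logarithmic, with dotted lines at 0.5 and 2 and a dashed line of equal ratios. All points lie above the dashed line because of the rule. They run from the CLE and Hexokinase-2 genes, which were lower in *hvatr.g* under both treatments, to the glutathione S-transferase at 8.05 and 12.3.

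Genes of the DNA damage response (DDR) were compared through the 421 barley genes of the catalogue compiled in the study from Arabidopsis homologs. None of the 67 genes was on it, beside 1.42% of the rows that reached 1 CPM in zeocin-treated *hvatr.g*, a share so small that nothing is read from this 0. Of the catalogue, 322 genes were tested, and edgeR called 16 higher and 18 lower after zeocin in *hvatr.g* and 16 higher and 12 lower in WT. Over all genes tested, 1.29% were called higher in *hvatr.g*, and 1.12% higher and 0.902% lower in WT. The share of all genes called lower in *hvatr.g* is not given here. In 18 catalogue rows the level was at least doubled in *hvatr.g* without overlap and at 1 CPM or more, and each had a WT ratio of at least 1.5. The lowest WT ratios among them were those of *ARP.B*, for an endonuclease of base excision repair, at 1.58 with an *hvatr.g* ratio of 2.04, and of *EME1B.A*, for a partner of the MUS81 endonuclease, at 1.89 with 2.29. Catalogue genes under the WT limit were ranked where they reached 1 CPM in zeocin-treated *hvatr.g*. Of these, *XRI1.B* had the highest *hvatr.g* ratio, 1.65, with a WT ratio of 1.45. *RPA2.G*, for a subunit of the single-strand binding protein RPA, had 1.57 and 1.14.

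The set depended on single libraries. Among the zeocin-treated *hvatr.g* libraries, replicate 2 was the lowest of its group in 41 of the 67 genes. Leaving out 1 library at a time and applying the rule again gave 55 to 110 genes, with 105 without mock-treated *hvatr.g* replicate 1, 110 without mock-treated *hvatr.g* replicate 2 and 104 without zeocin-treated *hvatr.g* replicate 2. An overlap is less likely with fewer libraries, which adds genes. The 7 genes kept each time were the Clp subunit, the B-box gene, the lectin receptor kinase HORVU.MOREX.r3.7HG0648480, the ABC-2 transporter and its neighbour, the amino acid transporter and the retrotransposon gene. The other 60 were lost at least once. In the edgeR fit the 27 genes called in *hvatr.g* became 12 without zeocin-treated replicate 3, 14 without zeocin-treated replicate 1, 14 without mock-treated replicate 1 and 16 without mock-treated replicate 2 of *hvatr.g*. Over all genes these fits called 230, 256, 261 and 273 in the same order, against 336 with all libraries.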

How the data were processed

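The authors trimmed paired reads with Trim Galore, mapped them with HISAT2 2.1.0 to Morex genome version 3 and assigned them to annotated genes with Subread 1.5.2. They deposited raw counts per transcript row for 12 libraries, without normalization. The handling of strand and of reads with several matches is not given in the sources used here. The genes and lists were chosen with earlier results of these data known.

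CPM is the count scaled to a library total of 1000000. Ratios are of group means. All 12 libraries were fitted in R 4.3.3 with edgeR 4.0.16 (filterByExpr, TMM, glmQLFit, glmQLFTest with 1 coefficient per group). The filter left 26039 rows, all 67 selected genes included. Calls needed a Benjamini-Hochberg adjusted p under 0.05 over all rows, with an absolute log2 fold change no smaller than 1, except for the interaction, which had no fold threshold. DESeq2 1.42.0 and limma 3.58.1 were alternatives. With 3 libraries against 3, an exact two-sided test of 1 gene cannot go below 0.1, and p-values measure the spread between these libraries only. Python 3.11.15, pandas 2.3.3 and matplotlib 3.10.9 served for tables and plots.

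Named genes were those with the 6 largest *hvatr.g* ratios (at least 10 counts in each zeocin library), the 6 highest *hvatr.g* zeocin means, the 6 largest fitted interactions, the 3 highest in each keyword group of at least 4, neighbours, and the 2 rows nearest each limit on either side. Of the library pairs with the same replicate number, the WT treatments deviated from their group means together (correlations of 0.361, 0.540 and 0.651), and the *hvatr.g* treatments did not in every pair (0.276, 0.0218 and 0.270). No library was a copy of another: the lowest chi-square per gene within a group was 14.8. No sequences are printed, since no genome or sequence table of this build was used here.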

Additional observations from a re-analysis of the deposited data

How the results depend on the processing

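Applied to CPM scaled by TMM, the rule gave 56 genes, of which 52 were among the 67, and with DESeq2 size factors 60, of which 56 were. It gave 66 with rows summed per gene, 25 with a minimum of 5 CPM, 10 with an *hvatr.g* ratio of at least 3 and 19 with a WT ratio under 1.2. DESeq2 called 424 genes higher after zeocin in *hvatr.g* (44 of the 67, which that contrast had chosen), against 336 (27) by edgeR. For the interaction, whose 2 contrasts had chosen the 67, DESeq2 called 17 genes (6 of the 67) with a larger response in *hvatr.g*. In that direction limma-voom called 1 gene and edgeR without a filter 4 genes (2 of the 67). In either direction DESeq2 called 120 genes and edgeR without a filter 33. Fitting the compared libraries alone gave 190 genes higher in WT after zeocin, and scaling by library size alone left 1 of the 67 lower in *hvatr.g* under zeocin. With the replicate number as a replicate block, no count of calls moved by over 1.5 times (375 genes, 37 of the 67, were higher after zeocin in *hvatr.g*). A replicate block within each genotype, added after the data were seen, called 406 genes (42 of the 67) higher after zeocin in *hvatr.g*. In that fit the level of a group stands for its replicate 1, so the genotypes are compared at replicate 1 and not over group means. Under zeocin it called 545 genes (9 of the 67) higher and 1 of the 67 lower in *hvatr.g*. These counts cannot be set beside those of the main fit. The cause of the other shifts was not tested.

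Leaving out each library in turn gave 55 to 110 genes by the rule. Genes called higher after zeocin numbered 230 to 368 in *hvatr.g* (12 to 33 of the 67) and 205 to 328 in WT (0 to 1 of the 67, with 1 without mock-treated WT replicate 3), and genes called lower in WT 125 to 296 (0 of the 67), where the fits without replicate 1 of zeocin-treated WT (125) and replicate 2 of mock-treated WT (150) were lowest. The interaction stayed at 0. In *hvatr.g* against WT, 886 to 1290 genes were lower under mock (5 to 7 of the 67) and 771 to 1093 higher (2 to 3), while 552 to 1006 were higher under zeocin (8 to 17) and 991 to 1542 lower (1 to 2). For single named genes, the fitted interaction changed sign in 2 cases. It ran from -0.019 to 0.766 for HORVU.MOREX.r3.4HG0403100, lowest without mock-treated WT replicate 3, and from -0.422 to 1.28 for HORVU.MOREX.r3.7HG0640030, lowest without mock-treated WT replicate 2. Low counts limit the genes under 2 CPM, which were 24 of the 67.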
